A study of Mus musculus with 6 samples.

Results

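The genes described here encode secreted ligands and receptors of vascular growth in mammary tumors. They are the VEGF ligands Vegfa, Vegfb and Vegfc, the VEGF receptor Flt1, the co-receptors Nrp1 and Nrp2, the angiopoietins Angpt1 and Angpt2, and the angiopoietin-like gene Angptl4. These 9 genes were taken by symbol from the 41388 genes of the count tables, and each symbol matched 1 Ensembl gene. All 9 had counts and all 9 passed the filter on low counts.

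VEGF ligands are secreted proteins that bind receptor tyrosine kinases on endothelial cells, the cells that line blood vessels. Neuropilins are transmembrane co-receptors which bind certain VEGF ligands as well as class 3 semaphorins, and they are found on endothelial cells, neurons, stromal cells and many carcinoma cells. The angiopoietins form a second ligand family that acts on the endothelial receptor Tie2. Angptl4 shares their fold but does not bind Tie2 and is best known as an inhibitor of lipoprotein lipase.

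RNA-seq compared 3 samples of tumor initiating cells (TICs), sorted as CD24+CD90+CD45-, with 3 samples of non-CD24+CD90+ tumor cells (the comparison cells), sorted from the same kind of tumor. All mice were of the strain FVB/N-TgN(MMTVPyVT)634Mul/J, in which the mouse mammary tumor virus promoter drives the polyoma middle T oncogene in mammary epithelium, and were 12 weeks old. Each sample pooled 4 cell sorts and gave 120 ng of RNA, so that differences between single animals are not visible. A total of 12 mice was used for the sorts, and whether both populations came from the same animals is not given in the sources used here. According to the study's methods the comparison group holds CD45-depleted cells lacking CD24, CD90 or both, whereas the series description names it CD24-CD90-, and the wider definition is used here. The question was how the transcriptome of TICs differs from that of the remaining tumor cells.

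Total counts per sample ranged from 6781239 to 9100552, and 3 counts, the smallest number taken as detected, corresponded to 0.330 to 0.438 CPM. CPM are counts scaled to library size, normalized here between samples by the TMM method of edgeR. Some genes for which the other samples of a group predicted 20 to 60 counts had 0 counts. Their share was 19.7% to 25.1% per comparison sample and 27.5% to 37.7% per TIC sample, highest in TIC replicate 3. A low value in 1 sample is therefore uncertain, more so in TICs. TIC replicate 3 stood apart from the other samples, with a root mean square difference of 2.07 to 2.23 in log2 CPM to each of them, against 1.57 to 2.01 between the other pairs. The labelled breast cancer cells had all 9 epithelial marker genes in every sample, with a summed level of 6491 to 6624 CPM in the comparison cells and 4225 to 4967 CPM in TICs. Both groups also held endothelial, pericyte and fibroblast marker RNA, as given beside the results below.

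Of the 9 genes, 1 passed an adjusted p of 0.1 in edgeR's exactTest, which is 11.1% of them, while 1.55% of all 12192 tested genes passed. This gene was Nrp1, which was higher in TICs, as were 1.36% of all tested genes, and none of the 9 was lower at this threshold, against 0.189%. At an unadjusted p below 0.05, 4 of the 9 were higher and 0 lower, against 4.74% and 3.11% of all tested genes. The quasi-likelihood test called 1 of the 9 and DESeq2 2, each higher in TICs. Positive log2 fold changes (TICs minus non-CD24+CD90+ tumor cells) were found in 7 of the 9 genes, against 49.7% of all tested genes, and negative ones in Vegfb and Angpt2. The median log2 fold change was 1.16 over the 9 genes and -0.01 over all tested genes. Nrp1 was also the single gene of the 9 whose groups did not overlap, a pattern seen in 15.2% of all tested genes, 7.69% with all TICs above and 7.55% with all TICs below. In sorted bulk samples, fewer cells of a type and less RNA per cell cannot be told apart.

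**Figure D1:**
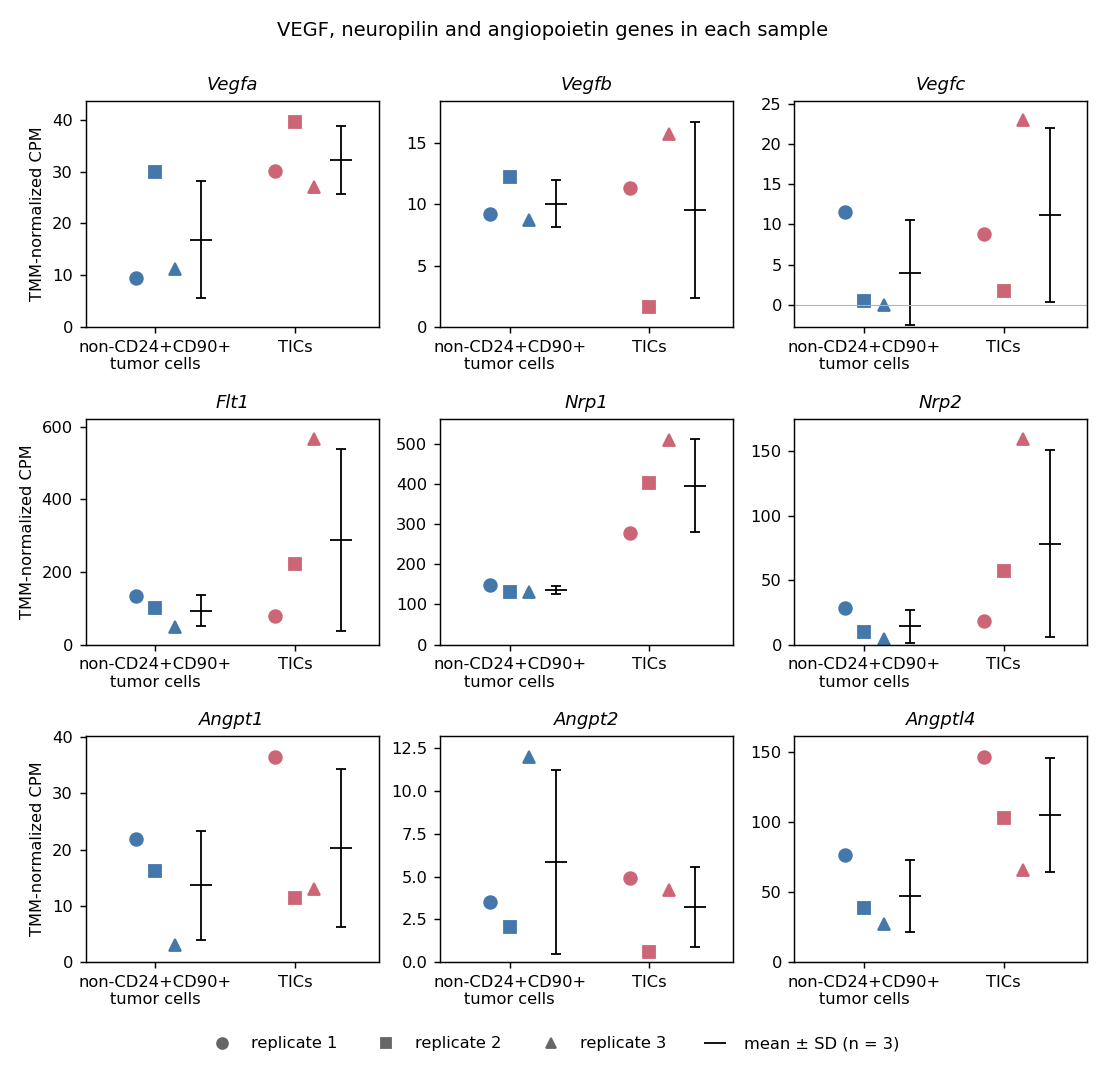
Level of each of the 9 genes in each sample, in TMM-normalized CPM on a linear axis; points are the 3 samples of each group, and bars give the mean and SD (n = 3), where an SD bar below 0 has no physical meaning. Nrp1 lies at 130 to 147 CPM among non-CD24+CD90+ tumor cells and at 278 to 509 CPM in TICs, whereas the samples of the groups overlap in the other 8 panels.

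Among the receptors, Nrp1 (ENSMUSG00000025810, chromosome 8 of GRCm38, 128358604 to 128503363, plus strand) encodes neuropilin 1, a co-receptor for VEGF-A and class 3 semaphorins. Nrp1 had 1007, 1149 and 918 counts in comparison replicates 1 to 3 and 2530, 3440 and 3855 counts in TIC replicates 1 to 3. After normalization the level of Nrp1 was 147, 130 and 131 CPM in the comparison cells and 278, 401 and 509 CPM in TICs. The comparison samples were nearly level, and the lowest TIC sample was above the highest of them. Mean levels were 136 ± 9.31 CPM and 396 ± 115 CPM (SD, n = 3), a 2.91-fold difference. The log2 fold change of Nrp1 was 1.54 (standard error, SE, 0.31, 95% interval 0.94 to 2.14), with an adjusted p of 0.00066 in edgeR's exactTest. By its p-value Nrp1 ranked 19 among all 12192 tested genes. Without TIC replicate 3 the log2 fold change of Nrp1 was 1.34 (adjusted p = 0.0046 in exactTest). Nrp1 passed the threshold in each of 7 other settings of test, normalization, filter and dispersion, with log2 fold changes of 1.47 to 1.57 and adjusted p-values of 9.61e-06 to 0.0537. The highest of these came from the quasi-likelihood test of edgeR, which called 0.41% of all tested genes. The microRNA gene Mir1903 shares 80 bases of exon with Nrp1 on the same strand.

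Nrp2 (ENSMUSG00000025969, chromosome 1, 62703285 to 62818695, plus strand) encodes neuropilin 2, which binds VEGF-C and semaphorins and is known for its role in lymphatic vessels. Nrp2 had 28.6, 9.76 and 4.01 CPM in the comparison cells and 18.4, 57.2 and 159 CPM in TICs. TIC replicates 2 and 3 were above every comparison sample, while TIC replicate 1 was below comparison replicate 1, so that the groups overlapped. The mean was 14.1 ± 12.9 CPM in the comparison cells and 78.3 ± 72.8 CPM in TICs (SD, n = 3). The log2 fold change of Nrp2 was the largest of the 9 genes at 2.47 (SE 0.74, 95% interval 1.01 to 3.93), but it did not pass the threshold (adjusted p = 0.115 in exactTest). It was past the threshold with RLE size factors (adjusted p = 0.0994), in DESeq2 (0.0507), which called 2.58% of all genes it tested, and in exactTest with trended dispersions (0.00152), which called 1.89%. Without TIC replicate 3 the log2 fold change of Nrp2 was 1.45 (adjusted p = 0.806 in exactTest), without TIC replicate 1 it was 2.96 (0.00744), and without comparison replicate 1 it was 3.51 (0.0271), where Vegfc had the largest log2 fold change of the 9 at 5.51.

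Flt1 (ENSMUSG00000029648, chromosome 5, 147561604 to 147726011, minus strand) encodes VEGF receptor 1, which binds VEGF-A, VEGF-B and placental growth factor and is also made as a soluble decoy. Counts per gene do not separate the soluble form from the membrane receptor. Flt1 had 133, 100 and 47.3 CPM in the comparison cells and 77.4, 223 and 566 CPM in TICs. TIC replicate 3 was the highest sample and TIC replicate 1 lay within the range of the comparison group. The mean was 93.6 ± 43.3 CPM in the comparison cells and 289 ± 251 CPM in TICs (SD, n = 3). The log2 fold change of Flt1 was 1.63 (SE 0.55, 95% interval 0.56 to 2.70), which did not pass the threshold (adjusted p = 0.176 in exactTest). Of 7 other settings only 1 passed the threshold, exactTest with trended dispersions (adjusted p = 3.39e-05). The adjusted p was 0.392 in the quasi-likelihood test and 0.482 in DESeq2. Leaving out TIC replicate 1 gave a log2 fold change of 2.09 (adjusted p = 0.00149 in exactTest), and leaving out TIC replicate 3 lowered it to 0.71 (adjusted p = 0.885).

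Flt1, Nrp1 and Nrp2 all had their highest level in TIC replicate 3 and their second highest in TIC replicate 2. TIC replicate 3 was the highest sample in 5 of the 9 genes, Vegfb and Vegfc included, and in 21.9% of all tested genes. For the 3 receptor genes the sequence just upstream of the RefSeq transcription start (RefSeq, GRCm38.p6) is shown, written 5′ to 3′ on the strand of the gene. Whether these sequences bear on the shared pattern was not tested. Entries were matched for 6 of the 9 genes, Vegfa, Vegfb, Vegfc, Flt1, Nrp1 and Nrp2, and not for Angpt1, Angpt2 and Angptl4. The windows are chr8:128358823-128359072 for Nrp1, which lies in an intron of the longest annotated transcripts, chr1:62703067-62703284 for Nrp2, where the bases next to the start are left out because they lie in an annotated exon, and chr5:147726012-147726261 for Flt1. Capitals mark matches, on either strand, to the GC box GGGCGG, the TATA box TATAAA and the cAMP response element TGACGTCA.
Nrp1: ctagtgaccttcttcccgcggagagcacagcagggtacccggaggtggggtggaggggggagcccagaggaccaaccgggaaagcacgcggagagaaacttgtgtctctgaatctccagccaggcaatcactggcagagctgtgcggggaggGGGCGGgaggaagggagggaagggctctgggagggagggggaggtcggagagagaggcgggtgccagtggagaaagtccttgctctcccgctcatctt
Nrp2: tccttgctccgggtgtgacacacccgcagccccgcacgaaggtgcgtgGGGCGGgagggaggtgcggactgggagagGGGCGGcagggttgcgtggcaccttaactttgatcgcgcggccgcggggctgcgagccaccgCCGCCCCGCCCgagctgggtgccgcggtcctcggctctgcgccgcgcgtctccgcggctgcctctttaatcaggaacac
Flt1: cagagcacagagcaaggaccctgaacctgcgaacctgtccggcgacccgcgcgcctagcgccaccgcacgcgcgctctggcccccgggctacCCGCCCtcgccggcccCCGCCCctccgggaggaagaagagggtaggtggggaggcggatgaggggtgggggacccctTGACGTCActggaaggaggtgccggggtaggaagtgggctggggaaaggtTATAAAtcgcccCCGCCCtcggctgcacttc
The windows were rich in G and C, with 64.4% in the 250 bases of Nrp1, 72.5% in the 218 bases of Nrp2 and 70.4% in the 250 bases of Flt1. The GC box occurred once in the Nrp1 window, whereas the Nrp2 window held 4 matches, of which the last pair overlap, and the Flt1 window 3. A GC box was present in 32.7% of all 32851 windows of 250 bases and in 28.2% of windows of 218 bases. Within the bases shown, the Flt1 window alone of the 3 held a TATA box, 31 bases upstream of the start, and a cAMP response element, 81 bases upstream. These letters were found in 12.4% and 1.5% of all windows. The bases left out of the Nrp2 window cover the position of the Flt1 TATA box, so that a match there could not be seen in Nrp2. The hypoxia response core ACGTG, found in 16.6% of all windows, and the E-box CACCTG, found in 17.2%, had no match in the 3 sequences. These matches describe letters in a short window and are not measured binding sites.

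Among the VEGF ligands, Vegfa (ENSMUSG00000023951, chromosome 17, 46016993 to 46032369, minus strand) encodes VEGF-A, the main growth factor of blood vessels, and its counts pool all splice isoforms. Vegfa had 9.49, 29.8 and 11.2 CPM in the comparison cells and 30.1, 39.6 and 26.9 CPM in TICs. The TIC samples lay close together, but TIC replicate 3 was below comparison replicate 2. The log2 fold change of Vegfa was 0.93 (SE 0.70, 95% interval -0.43 to 2.30) and did not pass the threshold (adjusted p = 0.950 in exactTest). Without comparison replicate 2 the log2 fold change was 1.64 (adjusted p = 0.889).

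Vegfb (ENSMUSG00000024962, chromosome 19, 6982473 to 6987651, minus strand) encodes VEGF-B, a ligand of Flt1 and Nrp1 but not of VEGF receptor 2. Vegfb had 9.19, 12.3 and 8.73 CPM in the comparison cells and 11.3, 1.63 and 15.7 CPM in TICs. TIC replicates 2 and 3 were the lowest and the highest of all 6 samples, and the groups overlapped. Vegfb had a log2 fold change of -0.08 (SE 1.18, 95% interval -2.38 to 2.23, adjusted p = 1 in exactTest), an interval that holds large differences in either direction.

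Vegfc (ENSMUSG00000031520, chromosome 8, 54077606 to 54187096, plus strand) encodes VEGF-C, the principal growth factor of lymphatic vessels. Vegfc varied widely, with 79, 4 and 0 counts in the comparison cells and 80, 15 and 175 counts in TICs. On the normalized scale these were 11.5, 0.454 and 0 CPM against 8.79, 1.75 and 23.1 CPM. Comparison replicate 1 was above TIC replicates 1 and 2, so that the groups overlapped, and comparison replicate 3 had no counts. Its log2 fold change was 1.49 (SE 1.68, adjusted p = 1 in exactTest) and moved between 0.43 without TIC replicate 3 and 5.51 without comparison replicate 1.

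Angpt1 (ENSMUSG00000022309, chromosome 15, 42424723 to 42676977, minus strand) encodes angiopoietin 1, the agonist of Tie2 that is made mainly by mural and other stromal cells. Angpt1 had 21.9, 16.1 and 3.0 CPM in the comparison cells and 36.5, 11.4 and 13.1 CPM in TICs. The highest sample was TIC replicate 1, and the other TIC samples lay within the range of the comparison group. For Angpt1 the log2 fold change was 0.57 (SE 0.93, adjusted p = 1 in exactTest), and it was -0.14 without TIC replicate 1. The gene Gm17473 shares 737 bases of exon with Angpt1 on the opposite strand, and it was not given in the sources used here whether counting used strand.

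Angpt2 (ENSMUSG00000031465, chromosome 8, 18690263 to 18741562, minus strand) encodes angiopoietin 2, a context-dependent antagonist of Tie2 released by activated endothelium. Angpt2 had few counts, with 24, 18 and 84 counts in the comparison cells and 45, 5 and 32 counts in TICs. These counts correspond to 3.50, 2.04 and 12 CPM and to 4.95, 0.583 and 4.22 CPM. A single comparison sample, replicate 3, held the highest value, and the groups overlapped. For Angpt2 the log2 fold change was -0.84 (SE 1.54, adjusted p = 1 in exactTest), and it was 0.23 without comparison replicate 3.

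Angptl4 (ENSMUSG00000002289, chromosome 17, 33773750 to 33781830, minus strand), a target of PPAR and hypoxia signaling, had 76.2, 38.4 and 27.0 CPM in the comparison cells and 147, 103 and 65.6 CPM in TICs. TIC replicates 1 and 2 were above every comparison sample, and TIC replicate 3 was below comparison replicate 1. Unlike the receptors, Angptl4 had its lowest TIC value in replicate 3. The mean was 47.2 ± 25.7 CPM in the comparison cells and 105 ± 40.6 CPM in TICs (SD, n = 3). Angptl4 had a log2 fold change of 1.16 (SE 0.46, 95% interval 0.26 to 2.06), with an unadjusted p of 0.0133 and an adjusted p of 0.347 in exactTest. In no other setting did it pass the threshold, and leaving out single samples gave adjusted p-values of 0.119 to 0.981.

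**Figure D2:**
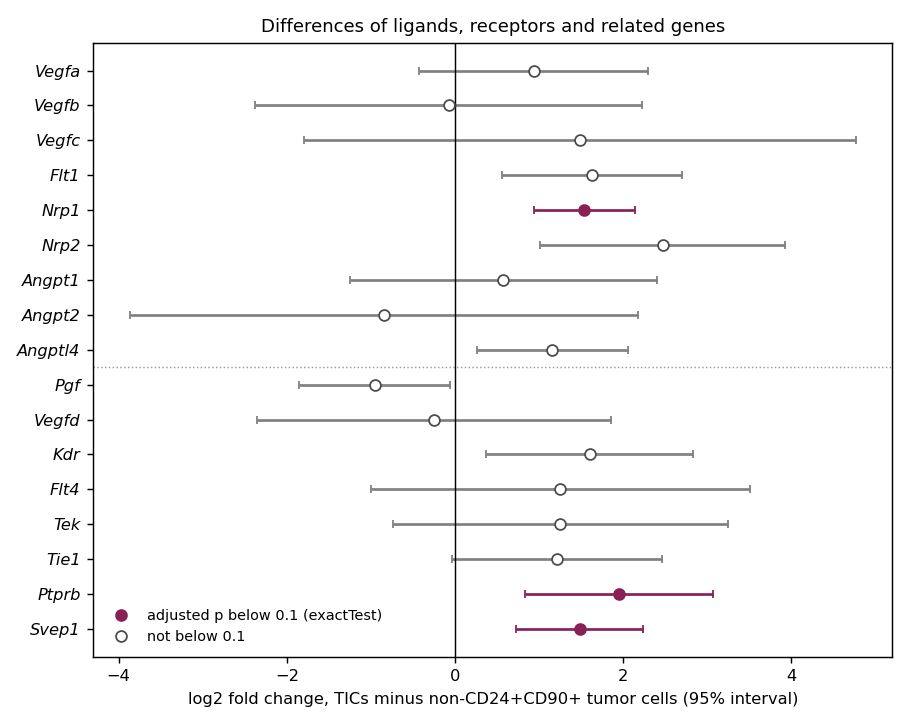
Log2 fold change of the 9 genes (above the dotted line) and of the other genes of both ligand and receptor families (below it), TICs minus non-CD24+CD90+ tumor cells, with 95% intervals; filled points have an adjusted p below 0.1 in exactTest. Nrp1, Ptprb and Svep1 are filled, and the intervals of Vegfa, Vegfb, Vegfc, Angpt1 and Angpt2 include 0.

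Levels of different genes were compared per length, as RPKM, the CPM divided by the exon length in kilobases. In non-CD24+CD90+ tumor cells the order ran from Nrp1 (13.9 ± 0.952 RPKM) through Angptl4, Flt1, Vegfb, Vegfa, Angpt1, Vegfc and Angpt2 to Nrp2 (1.19 ± 1.09 RPKM, SD, n = 3). Every neighbouring pair in this order overlapped between samples. In TICs Nrp1 was again first (40.5 ± 11.8 RPKM), followed by Angptl4 (29.7 ± 11.5 RPKM) and Flt1 (21.4 ± 18.6 RPKM). Vegfa, Nrp2, Vegfb, Vegfc and Angpt1 followed with means of 7.52, 6.61, 5.95, 4.58 and 3.90 RPKM, and Angpt2 was last (0.881 ± 0.634 RPKM). Only Angpt1 and Angpt2 were neighbours in TICs whose samples did not overlap.

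Ratios of related genes within a sample do not depend on scaling between samples, and 3 were compared as log2 ratios per length with a prior count of 2. The log2 ratio of Nrp1 to Nrp2 was 2.63, 3.98 and 5.23 in non-CD24+CD90+ tumor cells and 4.18, 3.08 and 1.95 in TICs. Nrp1 exceeded Nrp2 in all 6 samples, by least in TIC replicate 3. The mean difference of this ratio was -0.88 (exact two-sided permutation test, p = 0.5, where 0.1 is the smallest p that 3 samples against 3 allow). The log2 ratio of Angpt1 to Angpt2 was 2.06, 2.34 and -2.41 in non-CD24+CD90+ tumor cells and 2.33, 3.31 and 1.08 in TICs. Angpt1 was above Angpt2 in every sample other than comparison replicate 3, and the mean difference was 1.57 (exact permutation test, p = 0.6). The log2 ratio of Vegfa to Vegfb was -1.37, -0.15 and -1.07 in non-CD24+CD90+ tumor cells and -0.02, 2.99 and -0.65 in TICs, a mean difference of 1.64 (exact permutation test, p = 0.2). The samples of the groups overlapped in all 3 ratios.

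The remaining genes of the 2 families were described in the same fit. Of the other 4 VEGF ligands and receptors, Pgf, Vegfd, Kdr and Flt4, none passed the threshold in exactTest, the quasi-likelihood test or DESeq2, and 1 was higher (Kdr) and 1 lower (Pgf) at an unadjusted p below 0.05 in exactTest. Kdr, which encodes VEGF receptor 2, had 28.0, 27.3 and 22.2 CPM in the comparison cells and 32.8, 25.8 and 177 CPM in TICs, so that its log2 fold change of 1.6 (adjusted p = 0.352 in exactTest) rested on TIC replicate 3 and was 0.20 without it. Flt4, the receptor of VEGF-C, had 16.8, 14 and 4.86 CPM against 27.9, 0.117 and 57.0 CPM, with a log2 fold change of 1.25 (adjusted p = 0.999). Pgf, which encodes placental growth factor, another ligand of Flt1, had the most counts of this list. It had 55.0, 66.2 and 129 CPM in the comparison cells and 29.5, 43.8 and 55.7 CPM in TICs, and its log2 fold change of -0.96 did not pass the threshold (adjusted p = 0.579 in exactTest).

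Among the other 5 angiopoietin and Tie system genes, 4 were tested and 2 of them, Ptprb and Svep1, were higher in TICs. Ptprb, the endothelial phosphatase VE-PTP that acts on Tie2 and VEGF receptor 2, had 78.4, 27.2 and 15.3 CPM in the comparison cells and 60.1, 143 and 264 CPM in TICs. TIC replicate 1 was below the highest comparison sample. Its difference on the log2 scale was 1.95 (SE 0.57, adjusted p = 0.0833 in exactTest), and the call was lost without TIC replicate 2 or 3 or comparison replicate 2 or 3 (adjusted p = 0.184 to 0.543), without a filter on low counts (0.156) and in the quasi-likelihood test (0.304). The log2 fold change of Ptprb was 1.36 without TIC replicate 3 and 2.88 without comparison replicate 1. Svep1, an extracellular matrix protein that binds the orphan receptor Tie1, had 38.2, 76.1 and 114 CPM against 189, 186 and 264 CPM. All TIC samples of Svep1 were above all comparison samples, with a log2 fold change of 1.48 (SE 0.39, adjusted p = 0.0262). The adjusted p of Svep1 was 0.129 without TIC replicate 3, 0.214 and 0.210 without comparison replicates 1 and 2, and 0.178 in the quasi-likelihood test. Tek, which encodes Tie2, had 1.02, 15.9 and 13.3 CPM in the comparison cells and 19.9, 7.23 and 45.0 CPM in TICs, with a log2 fold change of 1.25 (adjusted p = 0.983). Tie1 had 17.9, 9.99 and 22.2 CPM against 23.8, 43.6 and 48.6 CPM, groups that did not overlap, with a log2 fold change of 1.21 (adjusted p = 0.697).

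Neuropilins also bind class 3 semaphorins, which signal through plexins. Of 7 semaphorin genes, 6 were tested, 5 had a positive log2 fold change and 1 passed the threshold. This was Sema3c, a secreted ligand of both neuropilins, with 111, 89.9 and 79.5 CPM in the comparison cells and 187, 256 and 170 CPM in TICs. The lowest TIC sample was above the highest comparison sample, and the log2 fold change of Sema3c was 1.13 (SE 0.32, adjusted p = 0.0488 in exactTest). The call of Sema3c was lost in the quasi-likelihood test (adjusted p = 0.169), without a filter on low counts (0.114) and without TIC replicate 2 (0.324) or any single comparison sample (0.113 to 0.358). None of 6 plexins and neuropilin adaptors passed the threshold in exactTest, the quasi-likelihood test or DESeq2, and 0 had an unadjusted p below 0.05, with a median log2 fold change of 0.15. The one with the most counts, the adaptor gene Gipc1, had 50.9 ± 25 CPM in the comparison cells and 54.4 ± 14 CPM in TICs (SD, n = 3), with an adjusted p of 1 in exactTest.

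Vegfa and Angptl4 are textbook targets of hypoxia-inducible factors, and Angptl4 is also a target of PPAR factors. Of 8 tested genes of the hypoxia-inducible factor system and 13 tested hypoxia response genes, none passed the threshold in exactTest, the quasi-likelihood test or DESeq2, with median log2 fold changes of -0.23 and -0.41. At an unadjusted p below 0.05 in exactTest, 1 gene of each list was higher, Epas1 and Adm, and 1 of the first list was lower, Egln3. The genes with the most counts were Egln3, a prolyl hydroxylase (log2 fold change -0.80, adjusted p = 0.451 in exactTest), and Ldha, a lactate dehydrogenase (-0.41, adjusted p = 0.983). Of 10 tested lipoprotein lipase and PPAR target genes, 2 were higher in TICs and the median log2 fold change was 0.73. Cd36, a fatty acid receptor, had 22.8, 34.3 and 19.2 CPM in the comparison cells and 63.1, 170 and 298 CPM in TICs (log2 fold change 2.80, adjusted p = 7.43e-05 in exactTest). Fabp4, a fatty acid binding protein, had 137, 91.3 and 56.5 CPM against 192, 494 and 1225 CPM (log2 fold change 2.75, adjusted p = 0.000466). Both Cd36 and Fabp4 are known from capillary endothelium as well as from adipocytes and macrophages. Both were highest in TIC replicate 3, where Angptl4 was lowest among TICs. They passed the threshold in all 7 other settings and with each sample left out, although the log2 fold change of Fabp4 was 1.88 without TIC replicate 3.

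None of 3 tested angiopoietin-like genes and none of 7 tested genes of VEGF-binding and other angiogenesis inhibitors passed the threshold, with median log2 fold changes of 0.69 and 0.91. At an unadjusted p below 0.05 the former held 0 genes and the latter 5 (Thbs2, Adamts1, Ccn2, Col18a1 and Sparc), all higher, and DESeq2 called 1 of the latter, Sparc (adjusted p = 0.00138). Angptl2, with the most counts of the former, had a log2 fold change of 0.70 (adjusted p = 0.793 in exactTest). Sparc, a matrix protein that binds VEGF-A, had 2752, 2018 and 2167 CPM in the comparison cells and 3252, 4187 and 5573 CPM in TICs, with a log2 fold change of 0.91 (adjusted p = 0.133). Across all 9 pathway lists, 5 of 61 tested genes were higher in TICs at the threshold and 0 were lower, against 1.36% and 0.189% of all tested genes. A positive log2 fold change was found in 40 of the 61, against 49.7% of all tested genes. The median log2 fold change was 0.29 over these lists and -0.01 over all tested genes.

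**Figure D3:**
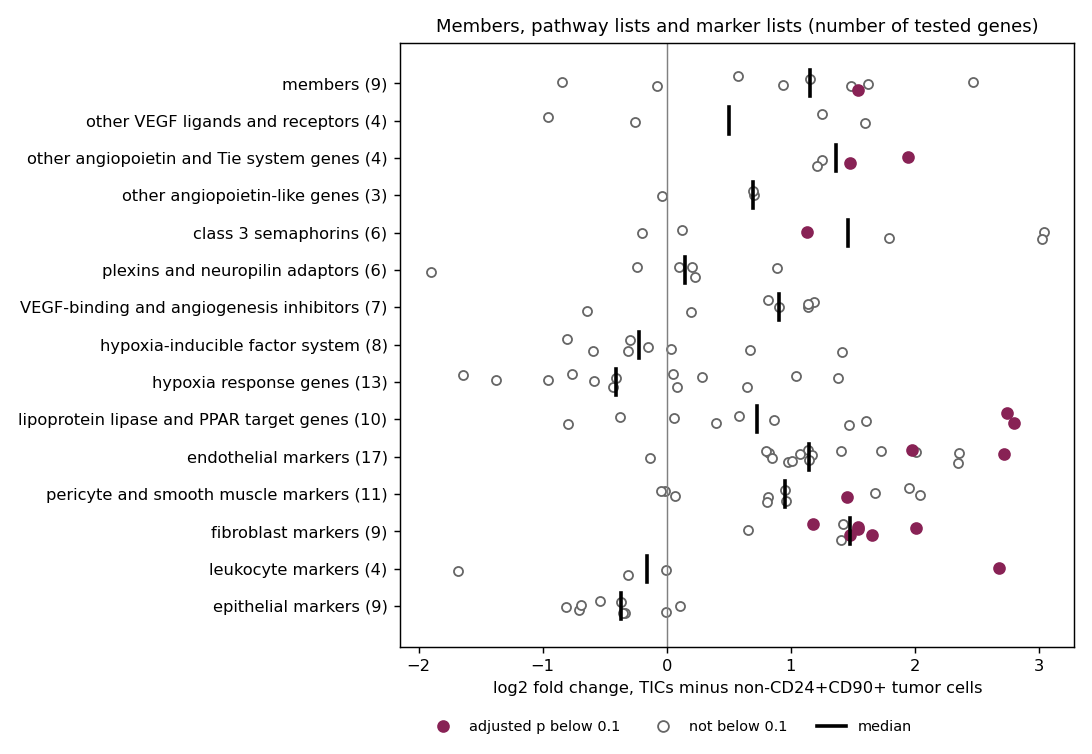
Log2 fold change, TICs minus non-CD24+CD90+ tumor cells, of each tested gene in the 9 genes described here (members), the pathway lists and the marker lists; filled points have an adjusted p below 0.1 in exactTest, vertical bars are medians, and vertical scatter within a row has no meaning. The medians of the members, endothelial, pericyte and fibroblast markers lie between 0.96 and 1.48, and that of the epithelial markers at -0.37.

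The summed levels of endothelial, pericyte and fibroblast markers were each higher in every TIC sample than in every comparison sample, while the single markers varied more. The summed level of 18 endothelial markers was 457, 461 and 322 CPM in the comparison cells and 484, 889 and 1844 CPM in TICs, a 2.59-fold difference of the means. Endothelial markers with any count above 0 numbered 16, 17 and 14 in non-CD24+CD90+ tumor cells and 18, 18 and 17 in TICs. Of 17 tested endothelial markers 2 were higher in TICs, namely Robo4 (log2 fold change 2.72, adjusted p = 0.00959 in exactTest) and Mmrn2 (1.98, adjusted p = 0.0468), and 16 had a positive log2 fold change. The call of Robo4 was lost without TIC replicate 3 or comparison replicate 1 or 3 (adjusted p = 0.102 to 0.401), and that of Mmrn2 without TIC replicate 3 or comparison replicate 2 or 3 (0.308 to 0.552). Without TIC replicate 3 their log2 fold changes were 1.79 and 1.26. The quasi-likelihood test called 0 endothelial markers, with 9 at an unadjusted p below 0.05, and DESeq2 called 2. The endothelial markers with the most counts, Plvap and Esam, had log2 fold changes of 1.08 and 1.15 (adjusted p = 0.316 and 0.380). In 14 of the 17 tested endothelial markers TIC replicate 3 was the highest sample, which is 82.4% against 21.9% of all tested genes. The same sample was highest in 6 of 11 tested pericyte and smooth muscle markers (54.5%), and in Flt1, Nrp1 and Nrp2.

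The sum of 11 pericyte and smooth muscle markers was 606, 710 and 822 CPM in the comparison cells and 1044, 1413 and 1727 CPM in TICs. Its single called gene was Rgs5, a pericyte regulator of G protein signaling (log2 fold change 1.45, adjusted p = 0.000466 in exactTest), and Pdgfrb had 0.81 (adjusted p = 0.363). Rgs5 alone gave 243 CPM of the sum in each comparison sample and 528, 667 and 800 CPM in TICs. Of the 11 genes, 9 had a positive log2 fold change, against 49.7% of all tested genes, and the median was 0.96. At an unadjusted p below 0.05 in exactTest 5 were higher and 0 lower. The smooth muscle genes Acta2, Myh11 and Cnn1, named after their values were seen, had log2 fold changes of -0.01, 0.07 and -0.05 (adjusted p = 1 each in exactTest). Des, of the same list, had 0.96. The sum of 9 fibroblast markers was 3306, 2957 and 3304 CPM against 7732, 10665 and 11046 CPM, the largest ratio of the marker lists at 3.08. Of these, 6 were higher in TICs, Col1a1, Col1a2, Col3a1, Dcn, Dpt and Pi16, of which the 3 collagen genes kept their calls in every other setting and with each sample left out. TIC replicate 3 was the highest sample in 2 of the 9 fibroblast markers, or 22.2%, close to the 21.9% of all tested genes. The sum of 9 leukocyte markers overlapped between the groups, with 61.5 to 84.2 CPM against 81.5 to 153 CPM. Adgre1 and Cd3e had 0 counts throughout, Cd14 had a log2 fold change of -0.01 (adjusted p = 1 in exactTest), and Lyz2, a lysozyme of myeloid cells, was higher in TICs (log2 fold change 2.68, adjusted p = 0.0125). The call of Lyz2 was lost in the quasi-likelihood test (0.138) and without TIC replicate 2 (0.224) or comparison replicate 3 (0.128). Of 6 adipocyte markers 5 had 0 counts in all samples and the list reached 2.10 CPM in TIC replicate 2 alone. No epithelial marker passed the threshold in exactTest, where 3 (Cdh1, Krt18 and Krt14) were lower at an unadjusted p below 0.05, while DESeq2 called 2 of them lower, Cdh1 and Krt18. Those with the most counts, Krt18 and Epcam, had log2 fold changes of -0.69 (adjusted p = 0.295) and -0.34 (adjusted p = 0.955).

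**Figure D4:**
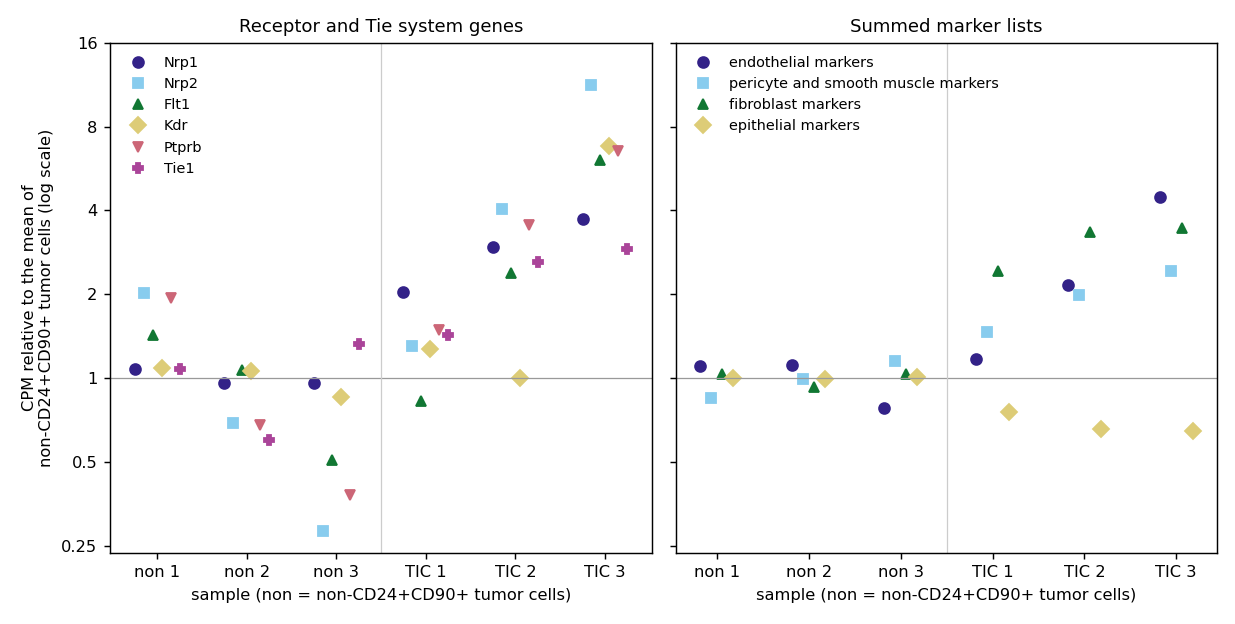
Level of 6 receptor and Tie system genes (left) and summed level of 4 marker lists (right) in each sample, as CPM relative to the mean of the non-CD24+CD90+ tumor cells on a log scale; each point is 1 sample. All 6 genes and the endothelial, pericyte and fibroblast sums are highest in TIC replicate 3. The epithelial sum is lower in all TICs, at 0.685 of the comparison mean on average.

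The level of each receptor was also expressed as a percentage of a marker sum in the same sample, a scale chosen after the values had been seen. Nrp1 equalled 32.2%, 28.3% and 40.8% of the endothelial sum in non-CD24+CD90+ tumor cells and 57.4%, 45.1% and 27.6% in TICs, so that the groups overlapped (exact permutation test, p = 0.5). Relative to the fibroblast sum, Nrp1 equalled 4.45%, 4.41% and 3.97% against 3.60%, 3.76% and 4.61%, which also overlapped (exact permutation test, p = 0.4). Relative to the pericyte and smooth muscle sum, all TIC samples of Nrp1 remained above all comparison samples, with 24.2%, 18.4% and 16% against 26.6%, 28.4% and 29.5% (exact permutation test, p = 0.1, the smallest possible). The same held relative to the epithelial sum, with 2.24%, 2.01% and 1.98% against 5.6%, 9.34% and 12% (p = 0.1 in the exact permutation test). The 2.91-fold difference of Nrp1 lay between the 3.08-fold difference of the fibroblast sum and the 2.59-fold difference of the endothelial sum. It was above the 1.957-fold difference of the pericyte and smooth muscle sum. Col1a1 and Col1a2, both called higher in TICs, gave 4718 and 2666 CPM of the mean fibroblast sum of 9814 CPM in TICs. These ratios do not identify the cells that the Nrp1 RNA came from. Flt1 equalled 29.2%, 21.7% and 14.7% of the endothelial sum in non-CD24+CD90+ tumor cells and 16%, 25.1% and 30.7% in TICs (exact permutation test, p = 0.7). For Nrp2 these percentages were 6.26%, 2.12% and 1.24% against 3.79%, 6.44% and 8.64%, which overlapped (exact permutation test, p = 0.2). Angptl4 overlapped between groups relative to the endothelial, pericyte and fibroblast sums and was higher in all TICs relative to the epithelial sum (exact permutation test, p = 0.1). What part RNA from endothelial, pericyte or fibroblast cells had in these differences was not tested.

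The genes whose pattern over the 6 samples was most like that of Nrp1 were Rgs5, Mlh3 and Col1a1. They had the smallest root mean square difference from Nrp1 in centred log2 CPM among 8762 genes with a mean of at least 10 CPM, at 0.10, 0.12 and 0.13. Rgs5 had 243, 243 and 243 CPM in the comparison cells and 528, 667 and 799.9 CPM in TICs. Col1a1, a fibrillar collagen gene, had 1707, 1368 and 1790 CPM against 3706, 4784 and 5665 CPM. Mlh3, a DNA mismatch repair gene, had 10.7, 10.4 and 8.15 CPM against 18.8, 26.8 and 38.1 CPM and did not pass the threshold (adjusted p = 0.676 in exactTest). All 3 genes and Nrp1 were ordered alike among TICs, with replicate 1 lowest and replicate 3 highest. That shared order follows from their choice by likeness to Nrp1 over the same 6 samples and is no separate result.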

How the data were processed

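Gene expression was measured by RNA-seq in 6 samples, 3 per sorted population. The authors used Trimmomatic 0.32 for trimming, STAR 2.4.0 for alignment (GRCm38) and SAMtools 1.1 and HTSeq for filtering and counting of uniquely mapped reads, and deposited raw counts per Ensembl gene. HTSeq's version, the annotation release and strand setting are not given in the sources used here. Reads shared by near-identical genes are missing from unique counts. Gene symbols, coordinates and exon lengths came from GENCODE M21 (GRCm38), which named 40254 of 41388 genes, and the others held 0.171% of counts.

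A gene was tested if 3 or more samples exceeded 1 CPM (12192 genes). Counts were TMM-normalized and compared with exactTest, using common and tagwise dispersions, in edgeR 4.0.16 under R 4.3.3, with Benjamini-Hochberg adjustment over all tested genes and a threshold of 0.1. The common dispersion was 0.678. Standard errors and 95% intervals came from the negative binomial fit. Ratios and percentages were compared by exact two-sided permutation tests in SciPy 1.17.1. Replicate numbers follow sample order and do not pair samples. Each library is a pool of sorts, so that p-values measure the spread between pools.

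The 9 genes, the pathway lists and the marker lists were chosen with earlier results of these data known. Named were all 9 genes, Kdr, Flt4, Tek and Tie1, each called list gene, the gene of highest mean CPM in each pathway list and the 2 highest in each marker list, and the 3 genes most like a called member. Alternatives were the quasi-likelihood test, DESeq2 1.42.0, normalization by RLE or by library size only, 2 different filters, trended dispersions, a threshold of 0.05 and leaving out each sample. The test script was checked on simulated counts. Sequences and motif matches came from RefSeq (GRCm38.p6).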

Additional observations from a re-analysis of the deposited data

How the results depend on the processing

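The count of the 9 genes past the threshold was 1, and it was 2 in DESeq2, 2 with RLE size factors, 3 with trended dispersions and 1 to 3 with each sample left out. Over all tested genes the count of 189 became 50 in the quasi-likelihood test, 306 in DESeq2, 112 without a filter on low counts, 116 at an adjusted p of 0.05, and 72 without non-CD24+CD90+ tumor cells replicate 3 to 323 without TIC replicate 1. The 15 called list genes became 7 in the quasi-likelihood test and 7 to 27 with samples left out. Of 63 comparisons of single members under other settings, 59 kept direction and side of the threshold and 4 (Nrp2 and Flt1) newly passed it. With samples left out, signs changed for Vegfb (-0.61 to 0.43, positive at 0.09 without non-CD24+CD90+ tumor cells replicate 2), Angpt1 (-0.14 to 1.1) and Angpt2 (-1.28 to 0.23), and among list genes for Gipc1 (-0.21 to 0.52) and Cd14 (-0.21 to 0.19). Cd14 also changed sign in DESeq2 and with RLE size factors (0.020 each) and without a filter (0.0066). Ratio differences kept their sign throughout, at -1.53 to -0.24 for Nrp1 to Nrp2, 0.04 to 2.41 for Angpt1 to Angpt2 and 0.53 to 2.35 for Vegfa to Vegfb with samples left out. The causes of these shifts were not tested. No paired analysis was possible because the labels give no replicate numbers that pair samples across groups, and shared animals, if any, could not be matched here. The biological coefficient of variation was 0.823, and the intervals of Vegfa, Vegfb, Vegfc, Angpt1 and Angpt2 held differences in either direction, so that a difference in these genes was neither shown nor excluded.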
